A study of Xenopus laevis with 6 samples.

Results

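The genes examined here encode the enzymes that write, copy, oxidize, excise and read 5-methylcytosine in DNA. They were chosen by name, as every feature whose symbol without a final .L or .S was tdg, tet1, tet2, tet3, dnmt1, dnmt3a, dnmt3b, uhrf1, mbd4 or mbd2. Of these 10 symbols, 7 matched a feature in the count tables, which gave 12 features among 44958 in all. X. laevis is allotetraploid, and .L and .S tell its homeologs apart by the long or short subgenome that carries them. Both homeologs were counted for tet2, tet3, dnmt1, uhrf1 and mbd2, whereas tdg was represented by tdg.S and mbd4 by mbd4.L. The genes tet1, dnmt3a and dnmt3b and the homeologs tdg.L and mbd4.S were not analysed here.

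RNA-seq had been carried out on whole Xenopus laevis embryos at stage 23 (early tailbud), with 3 libraries from embryos injected with neil2 Morpholino (neil2 MO) and 3 from embryos injected with control Morpholino (control MO). A Morpholino is a synthetic antisense oligonucleotide, and each embryo of either group received 40 ng into the animal side at the 1-cell stage. Each library was made from polyadenylated RNA of a pool of 6 embryos, and no further treatment or genotype was given for either group. The neil2 MO was designed to block translation, so the neil2 transcript count does not measure the knockdown. neil2.L had 5, 4 and 15 reads in neil2 MO libraries and 3, 4 and 3 reads in control MO libraries, which is too low to test. Equal replicate numbers are not stated to share a clutch or a day, and p-values measure the spread between these pools.

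Methylation of cytosine in CpG dinucleotides is copied to the new strand after each replication. Uhrf1 binds the hemimethylated site and recruits the methyltransferase Dnmt1 to it. Removal proceeds through Tet dioxygenases, which oxidize 5-methylcytosine stepwise, and through Tdg, which excises the most oxidized forms and leaves an abasic site for base excision repair (BER). Neil2 is a DNA glycosylase of that repair pathway and has been placed downstream of Tdg, so the study asked whether its loss acts through DNA damage or through impaired demethylation. In Xenopus embryos, Dnmt1 is known for holding back premature transcription, and Tet3 for its part in eye, neural and neural crest gene expression.

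Libraries held between 11534725 and 24034094 counted reads. The floor of 3 reads corresponded to between 0.125 and 0.260 CPM (read counts scaled to a common library total), which covers counting error only. Both replicate 3 libraries stood apart from the other 4 on the first principal component (39.9% of the variance), and the log2 fold change of each tested member is also given without them. Markers of all 6 tissues examined were detected, as 31 of 36 marker symbols had a feature and 57 of 61 marker features were tested. The untested features were the gata1 and hba1 homeologs, all of them blood markers with few reads, so that 3 of 6 blood symbols were tested. The summed CPM of 6 neural marker genes was 578 to 645 in neil2 MO and 712 to 741 in control MO libraries, without overlap. All 11 tested neural features had negative log2 fold changes, against 48.3% of all features, and none of them was called. Summed muscle markers (2134 to 2186 in neil2 MO, 2270 to 2636 CPM in control MO) and endoderm markers (287 to 368 in neil2 MO, 369 to 434 CPM in control MO) did not overlap either. The summed markers of neural crest (343 to 427 in neil2 MO, 352 to 455 CPM in control MO), epidermis and blood overlapped. Of all features tested, 16.5% did not overlap in CPM, 10.3% with neil2 MO below and 6.13% with neil2 MO above. With size factors in place of library totals, the neural sums stayed apart, but those of muscle and endoderm overlapped. The epidermis sums were then separated, as higher in neil2 MO. For muscle, endoderm and epidermis the separation thus depended on the scaling. Of single features, 4 of 8 for muscle (median -0.03), 8 of 10 for endoderm and 7 of 12 for neural crest had negative log2 fold changes. In whole embryos, fewer cells of a type and less RNA per cell cannot be told apart, and the part of tissue makeup in the values below was not tested.

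Transcripts of the methylation enzymes were first compared between groups across all members. With DESeq2, 0 of the 10 members tested were called, which required an adjusted p-value under 0.1 together with a log2 fold change beyond 0.5 in either direction, against 2.29% of the 23457 features tested. An unadjusted p-value below 0.05 was reached by 1 of the 10, mbd4.L, against 9.84% of all features, and edgeR also called 0 of them (0.592% of all features) with 1 at an unadjusted p-value below 0.05. The median log2 fold change of the 10 was -0.01, with 5 above and 5 below 0, against 0.01 for all features tested. The median absolute value was 0.26, against 0.19 for all features and 0.16 for features with a mean normalized count of at least 100.

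The lack of calls does not show that levels were equal, because most intervals reached beyond -0.5 or 0.5. Only for tdg.S and tet2.L did the 95% interval of the log2 fold change lie within -0.5 and 0.5. That is 2 of 10 members (20%), against 19.4% of all features and 28.6% of features with a mean normalized count of at least 100. The median standard error was 0.18 for the members, against 0.25 and 0.22 for these same sets. When the replicate number entered the fit as a block, the number of lowered members became 1, mbd4.L, where 5.88% of all features were called, 3.14% as raised and 2.74% as lowered. The numbers pair the libraries as judged by their shared deviations from the group means, so values with the block are printed where they move a call.

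**Figure D1:**
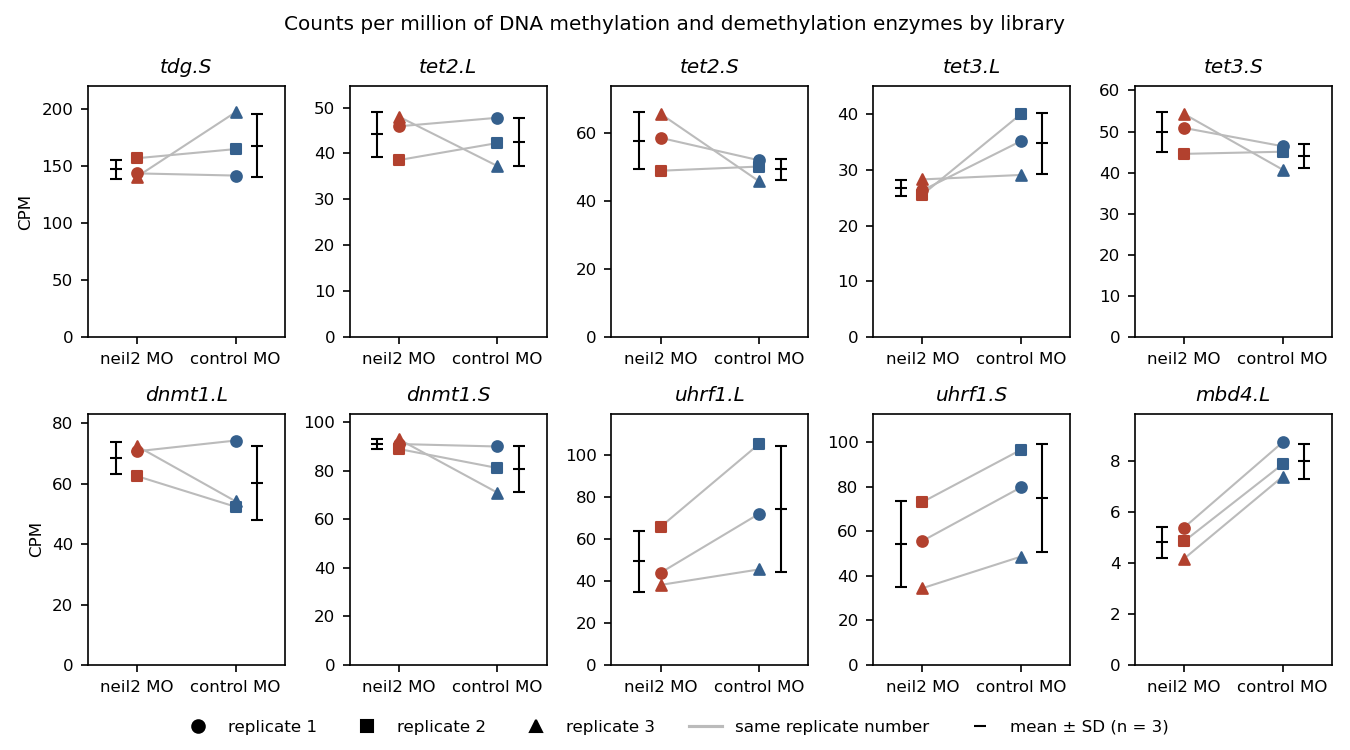
CPM of the 10 tested features in each library, with neil2 MO left of control MO. Points are pools of 6 embryos, marker shape gives the replicate number, grey lines join equal numbers and bars are mean ± SD (n = 3). The mbd4.L and tet3.L points of neil2 MO all lie below those of control MO, and within each number the uhrf1 points of neil2 MO lie below those of control MO.

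Among the glycosylases, mbd4.L showed the largest difference of the tested members. Mbd4 binds methylated CpG sites and removes thymine or uracil mispaired with guanine, the products of deamination at these sites. mbd4.L had 5.38, 4.84 and 4.16 CPM in neil2 MO replicates 1 to 3, against 8.71, 7.86 and 7.37 CPM in control MO replicates 1 to 3. The highest neil2 MO value thus lay below the lowest control MO value. The mean was 4.79 ± 0.61 CPM in neil2 MO and 7.98 ± 0.68 CPM in control MO (SD, n = 3 each). These values rested on few reads, between 88 and 100 per neil2 MO library and between 85 and 180 per control MO library.

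The log2 fold change of mbd4.L was -0.69 (95% interval -1.20 to -0.17), a fold of 0.621, and DESeq2 gave it an unadjusted p-value of 0.00886 and an adjusted p-value of 0.220. With the replicate block it was -0.68 ± 0.26 (SE), and the adjusted p-value from DESeq2 was 0.0960, just past the threshold. edgeR gave adjusted p-values of 0.299 without and 0.0204 with the block. Within same-numbered pairs the log2 difference was -0.63, -0.62 and -0.79 for replicates 1 to 3. Without both replicate 3 libraries the log2 fold change was -0.63, so its size did not rest on them. Leaving out each library in turn, without the block, it ranged from -0.77 to -0.58, and none of these fits called it.

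Tdg, the glycosylase that excises oxidized methylcytosine and thymine in G:T mispairs, was counted at higher depth. tdg.S had 143, 157 and 141 CPM in neil2 MO replicates 1 to 3, against 142, 165 and 197 CPM in control MO replicates 1 to 3. The groups overlapped, and control MO replicate 3 stood above all other libraries. The log2 fold change was -0.14 (95% interval -0.49 to 0.22). It ranged from -0.26 without control MO replicate 1 to -0.01 without control MO replicate 3, and without both replicate 3 libraries it was 0.03.

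Both uhrf1 homeologs had negative log2 fold changes, which passed the adjusted p-value once the replicate number was fitted as a block. uhrf1.L had 43.9, 65.7 and 38.1 CPM in neil2 MO replicates 1 to 3, against 71.9, 105 and 45.4 CPM in control MO replicates 1 to 3. uhrf1.S had 55.6, 73.0 and 34.4 CPM in the neil2 MO libraries, against 79.6, 96.4 and 48.6 CPM in the control MO libraries. In both groups and both homeologs replicate 2 was highest and replicate 3 lowest, and the groups overlapped. Yet in each same-numbered pair the neil2 MO library lay below its control MO counterpart. The paired log2 differences were -0.65, -0.61 and -0.23 for uhrf1.L and -0.45, -0.33 and -0.47 for uhrf1.S.

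Without the block, the log2 fold change of uhrf1.L was -0.53 ± 0.30 (SE) and that of uhrf1.S -0.40 ± 0.30, neither past the threshold (adjusted p-values from DESeq2 0.595 and 0.785). With the block the standard errors were 0.14 and 0.13 and the log2 fold changes -0.499 and -0.42 (adjusted p-values from DESeq2 0.00894 and 0.0220). Both thus passed the adjusted p-value but not the effect size filter in DESeq2 with the block, uhrf1.L by a narrow margin. Without that filter, a setting added after seeing the data, 3 members (uhrf1.L, uhrf1.S and mbd4.L) were lowered and 0 raised, against 3.71% of features lowered and 4.81% raised (8.52% in all). edgeR with the block called uhrf1.L (log2 fold change -0.51, adjusted p-value 0.0109) and mbd4.L, that is 2 of 10 members, against 5.27% of features lowered and 4.11% raised (9.38% in all). When the homeologs were summed, uhrf1 had 99.5, 139 and 72.5 CPM in neil2 MO and 152, 202 and 94.0 CPM in control MO replicates 1 to 3. The summed log2 fold change was -0.47 ± 0.29 without the block and, added after seeing the data, -0.46 ± 0.11 with it. Summed uhrf1 was called in neither fit, as with the block it passed the adjusted p-value (DESeq2, 0.00171) but not the effect size filter. The size of the unpaired difference rested on single libraries of both groups. For uhrf1.L the log2 fold change was -0.83 without neil2 MO replicate 2 and -0.17 without control MO replicate 2. For uhrf1.S it was -0.71 without neil2 MO replicate 2, -0.15 without neil2 MO replicate 3, -0.16 without control MO replicate 2 and -0.64 without control MO replicate 3. Without both replicate 3 libraries the log2 fold changes were -0.63 for uhrf1.L and -0.39 for uhrf1.S.

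The maintenance methyltransferase gene dnmt1 had positive log2 fold changes in both homeologs and passed no threshold. dnmt1.L had 70.8, 62.5 and 72.4 CPM in neil2 MO replicates 1 to 3, against 74.3, 52.4 and 54.2 CPM in control MO replicates 1 to 3. dnmt1.S had 90.9, 88.9 and 92.9 CPM in neil2 MO, against 89.9, 81.1 and 70.9 CPM in control MO. For both homeologs the CPM ranges overlapped, because control MO replicate 1 was the highest dnmt1.L library and lay among the neil2 MO libraries for dnmt1.S. The log2 fold changes were 0.24 (95% interval -0.12 to 0.60) for dnmt1.L and 0.23 (-0.09 to 0.54) for dnmt1.S (adjusted p-values from DESeq2 0.809 and 0.770). With the block the values were 0.25 and 0.23, and neither passed. They were 0.14 for both homeologs without both replicate 3 libraries. Of single libraries, leaving out control MO replicate 1 gave 0.40 for dnmt1.L and leaving out control MO replicate 3 gave 0.14 for dnmt1.S.

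**Figure D2:**
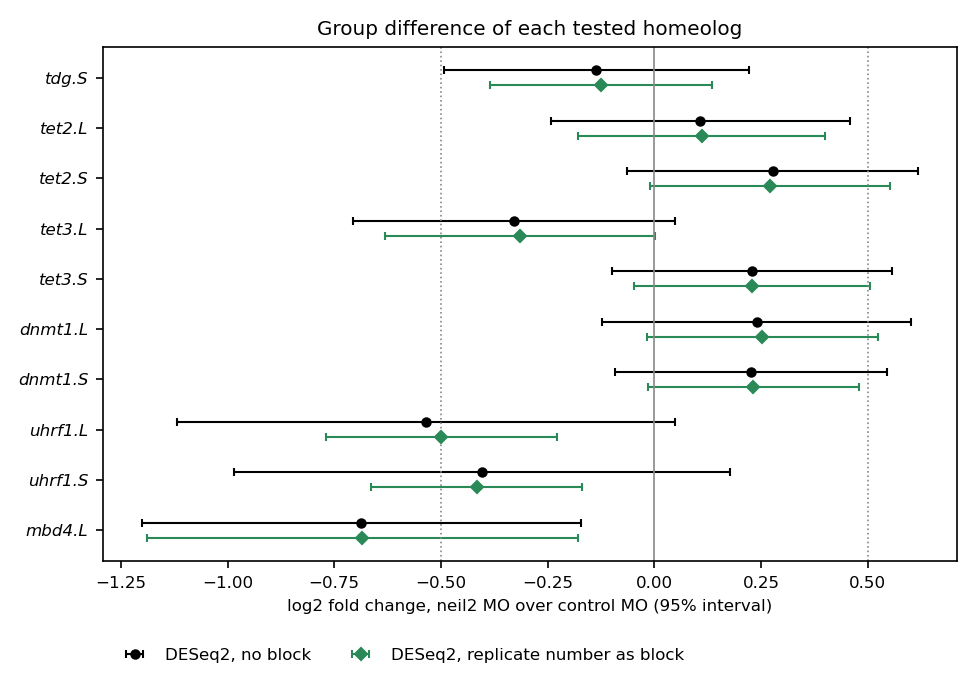
Log2 fold change of neil2 MO over control MO for the 10 tested features, with 95% intervals from DESeq2 without (black circles) and with (green diamonds) the replicate number as a block. Dotted lines mark -0.5 and 0.5. The uhrf1 intervals are visibly narrower with the block (standard errors 0.14 and 0.13) than without it (0.30 each), and only mbd4.L has an interval below 0 in both fits.

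Of the Tet dioxygenase genes, tet3 had log2 fold changes of opposite sign in its homeologs, neither of them called. tet3.L had 26.4, 25.6 and 28.3 CPM in neil2 MO replicates 1 to 3, against 35.2, 40.1 and 29.1 CPM in control MO replicates 1 to 3. All neil2 MO values were below all control MO values, though in replicate 3 the paired log2 difference was only -0.01. tet3.S had 50.9, 44.6 and 54.3 CPM in neil2 MO, against 46.4, 45.1 and 40.8 CPM in control MO. It was thus higher in neil2 MO on average, with overlap in CPM. The log2 fold changes were -0.33 (95% interval -0.71 to 0.05) for tet3.L and 0.23 (-0.10 to 0.56) for tet3.S (adjusted p-values from DESeq2 0.643 and 0.779). Without control MO replicate 2 that of tet3.L was -0.20, and without both replicate 3 libraries the values were -0.47 for tet3.L and 0.12 for tet3.S. Summed over both homeologs, the log2 fold change of tet3 was 0.01 ± 0.16 (SE).

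The other Tet gene with features in the counts, tet2, was higher on average in neil2 MO for both homeologs, short of the threshold. tet2.L had 45.9, 38.6 and 48.0 CPM in neil2 MO replicates 1 to 3, against 47.8, 42.3 and 37.3 CPM in control MO replicates 1 to 3. tet2.S had 58.6, 49.0 and 65.7 CPM in neil2 MO, against 52.0, 50.2 and 45.9 CPM in control MO. In both copies the groups overlapped in CPM, and the largest paired difference was that of replicate 3. The log2 fold changes were 0.11 (95% interval -0.24 to 0.46) for tet2.L and 0.28 (-0.06 to 0.62) for tet2.S. Without both replicate 3 libraries they were -0.03 for tet2.L and 0.13 for tet2.S. Leaving out single libraries, tet2.L ranged from 0.02 without control MO replicate 3 to 0.18 without control MO replicate 1.

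Homeologs were then compared with each other, through the ratio of L to S reads in each library. Transcript lengths were not used, so levels of the copies are not ranked. The log2 ratio of tet3.L to tet3.S was -0.95, -0.80 and -0.94 in neil2 MO replicates 1 to 3, against -0.40, -0.17 and -0.48 in control MO replicates 1 to 3. The neil2 MO ratios all lay below the control MO ratios, and the difference was -0.54 (95% interval -0.87 to -0.21). Among 7285 pairs tested with limma the unadjusted p-value was 0.00609 and the adjusted p-value 0.283. None of the 4 pairs of methylation enzyme genes tested passed, where 0.426% of all pairs did (31 pairs), and tet3 alone among the 4 had an unadjusted p-value below 0.05.

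Once the block was fitted, the limma adjusted p-value of the tet3 ratio was 0.108, where 2.81% of pairs passed. As settings added after seeing the data, the variance trend was made to follow the mean level of the pair. The limma adjusted p-value was then 0.209 without the block (0.92% of pairs passed) and 0.0116 with it (11.9% of pairs passed). Differences of the log2 ratio were -0.16 (95% interval -0.45 to 0.13) for tet2, 0.02 (-0.32 to 0.36) for dnmt1 and -0.08 (-0.48 to 0.33) for uhrf1. In tet2, as in tet3, the ratio was lower in neil2 MO in all 3 same-numbered libraries and the groups did not overlap, whereas it was lower in 1 of 3 for dnmt1 and in 2 of 3 for uhrf1. Thus 2 of 4 ratios did not overlap, against 16.2% of all homeolog pairs (8.35% with neil2 MO below), and 2 of 4 moved one way in all 3, against 42.9% (22.1% with neil2 MO lower). Reads of near-identical stretches of both homeologs were left uncounted, so these ratios rest on the bases in which the copies differ.

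**Figure D3:**
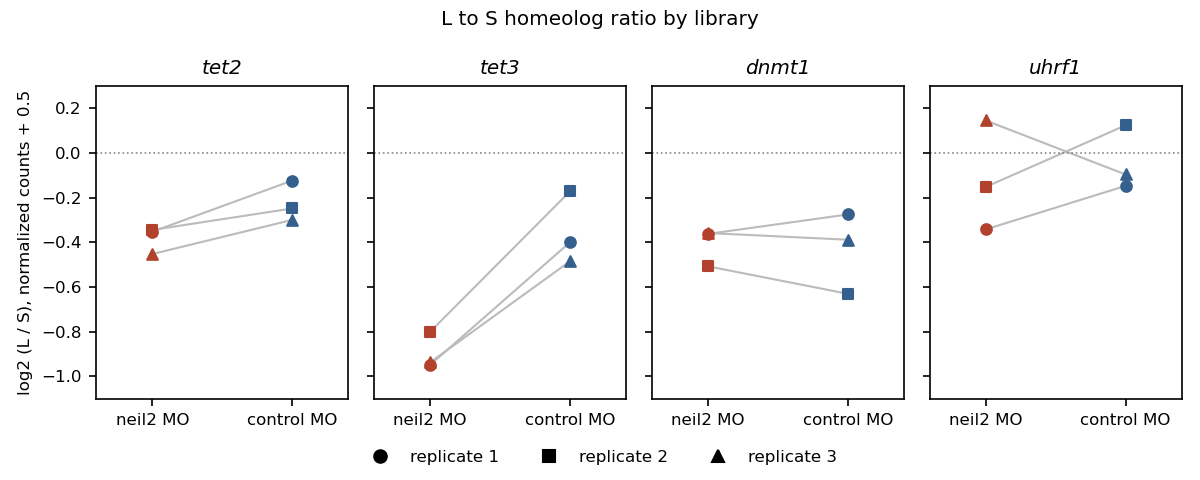
Log2 ratio of L to S homeolog in normalized counts (pseudocount 0.5) by library for the 4 pairs tested, neil2 MO left of control MO, with grey lines joining equal replicate numbers. The 3 tet3 ratios of neil2 MO lie between -0.95 and -0.80, below the control MO ratios of -0.48 to -0.17.

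The methyl-CpG reader gene mbd2 was near the floor in every library. Mbd2 binds methylated DNA and recruits the NuRD histone deacetylase complex. mbd2.L had 6, 3 and 13 reads in neil2 MO replicates 1 to 3, against 7, 6 and 2 reads in control MO replicates 1 to 3. mbd2.S had 1 read in each neil2 MO library, against 4, 0 and 3 reads in control MO. Neither received an adjusted p-value, and a difference was not detectable at this depth. Another NuRD subunit gene, mbd3, is a paralogue of mbd2 that is grouped here with the readers of methylated CpG. It was named after its values were seen. Its transcripts were counted at 55.1 CPM (mbd3.L) and 113 CPM (mbd3.S) on average in neil2 MO. In control MO the averages were 51.3 and 85.1 CPM, and neither homeolog was called.

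How often the groups separated was counted for all tested members. In CPM, 2 of 10 members did not overlap (tet3.L and mbd4.L, both lower), against 16.5% of features, 6.13% with neil2 MO above and 10.3% with neil2 MO below. In normalized counts, in which size factors replace library totals, tet2.S, tet3.S and dnmt1.S were also separated, as higher in neil2 MO, which gave 5 of 10 against 16.3% (8.3% above and 7.98% below). Their separation thus depended on the scaling. All 3 same-numbered pairs moved one way in 7 of 10 members, with tet2.S, tet3.S and dnmt1.S higher and tet3.L, uhrf1.L, uhrf1.S and mbd4.L lower in neil2 MO, against 44.9% of features (23.6% higher and 21.3% lower).

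Genes that act with these enzymes were compared next, from 5 lists of 45 symbols in all. The lists held partners of maintenance methylation, readers of methylated CpG, NuRD subunits, enzymes of the methyl donor cycle and accessory factors of demethylation. Of 67 features tested, 1 was raised and 0 were lowered with DESeq2, against 1.17% raised and 1.12% lowered of all features. Their median log2 fold change was 0.09, with 25 of 67 below 0, against a median of 0.01 and 48.3% below 0 for all features. Features with a mean normalized count of at least 100 had a median of 0.03, with 44.3% below 0. The raised feature was chd4.S, one homeolog of the helicase subunit of NuRD. chd4.S had 104, 98.1 and 110.2 CPM in neil2 MO replicates 1 to 3, against 70.6, 70.2 and 85.8 CPM in control MO, without overlap. Its log2 fold change was 0.52 ± 0.16 (SE), barely past both thresholds (adjusted p-value 0.0802 in DESeq2 and 0.227 in edgeR). The call was lost without neil2 MO replicate 1, 2 or 3 and without control MO replicate 1, while chd4.L, with a log2 fold change of 0.18 ± 0.17, was not called.

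By list, median log2 fold changes were 0.14 for the 14 maintenance partner features, 0.16 for 5 reader features, 0.12 for 20 NuRD features, -0.11 for 11 methyl donor features and 0.06 for 17 accessory features. The genes named next were chosen after their values were seen. Maintenance partners include hells, whose product remodels nucleosomes for DNA methylation, and the Uhrf1-stabilizing deubiquitinase gene usp7. The log2 fold changes were 0.19 and 0.11 for hells.L and hells.S and 0.16 and 0.17 for usp7.L and usp7.S, none of them called. Among accessory genes for further BER enzymes, the log2 fold changes were -0.09 for neil1.L, -0.10 for apex1.L, 0.06 for apex1.S and -0.04 for smug1.L. They were larger and positive for neil3.L (0.53) and ung.L (0.37), while neil3.S received no adjusted p-value. DESeq2 called none of these features, with or without the block. With the replicate block chd4.S remained the 1 raised feature, against 3.14% of all features raised. edgeR with the block raised 4, chd4.S, chd3.L, neil3.L and cxxc4.L, against 4.11% of all features. With the block and no effect size filter, DESeq2 gave 5 of 67 list features as raised and 1 as lowered. Of all features, 4.81% were raised and 3.71% lowered at that setting. Besides chd4.S, 5 features thus passed the adjusted p-value but not the effect size filter. Log2 fold changes were 0.47 for mbd3.S, 0.48 for pcna.S, 0.40 for pcna.L and 0.43 for mtr.L, against -0.40 for idh2.S (adjusted p-values from DESeq2 0.00529, 0.00761, 0.0609, 0.019 and 0.0971).

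Because dnmt1 and uhrf1 are transcribed mainly in dividing cells, genes of S phase are given beside them. The summed CPM of the S phase genes was 2232 to 2494 in neil2 MO and 2204 to 2457 in control MO libraries. The median log2 fold change of 18 tested features was 0.10, with 6 of 18 below 0, against 48.3% of all features. DESeq2 called 1 of them as lowered, mcm4.S, a homeolog of a replicative helicase subunit gene, against 1.12% of all features lowered. mcm4.S had 17.1, 26.5 and 23.2 CPM in neil2 MO replicates 1 to 3, against 67.7, 59.0 and 62.1 CPM in control MO, a log2 fold change of -1.44 ± 0.21 (SE; adjusted p-value from DESeq2 5.73e-09). For mcm4.L the log2 fold change was -0.11 ± 0.17 (SE). rrm1.L, which encodes the large subunit of ribonucleotide reductase, was lowered with the block (log2 fold change -0.86, DESeq2 adjusted p-value 3.89e-04). Without the block its DESeq2 adjusted p-value was 0.101. With the block 2 of the 18 features were thus lowered, against 2.74% of all features. The other homeolog, rrm1.S, had 148.5 CPM on average in neil2 MO and 143.5 CPM in control MO. Its log2 fold change was 0.11 without and with the block, and it was not called. Named after its values were seen, mcm7.S passed the adjusted p-value with the block but not the effect size filter. Its log2 fold change with the block was -0.40 (DESeq2 adjusted p-value 0.0289), against 0.19 for mcm7.L, which did not pass. Without that filter, 3.71% of all features were lowered with the block. In the other direction, ccne1.S, also named after its values were seen, had a log2 fold change of 0.31. Its neil2 MO values all lay above those of control MO in CPM, and it was not called. The part of cell division in the uhrf1 values was not tested.

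**Figure D4:**
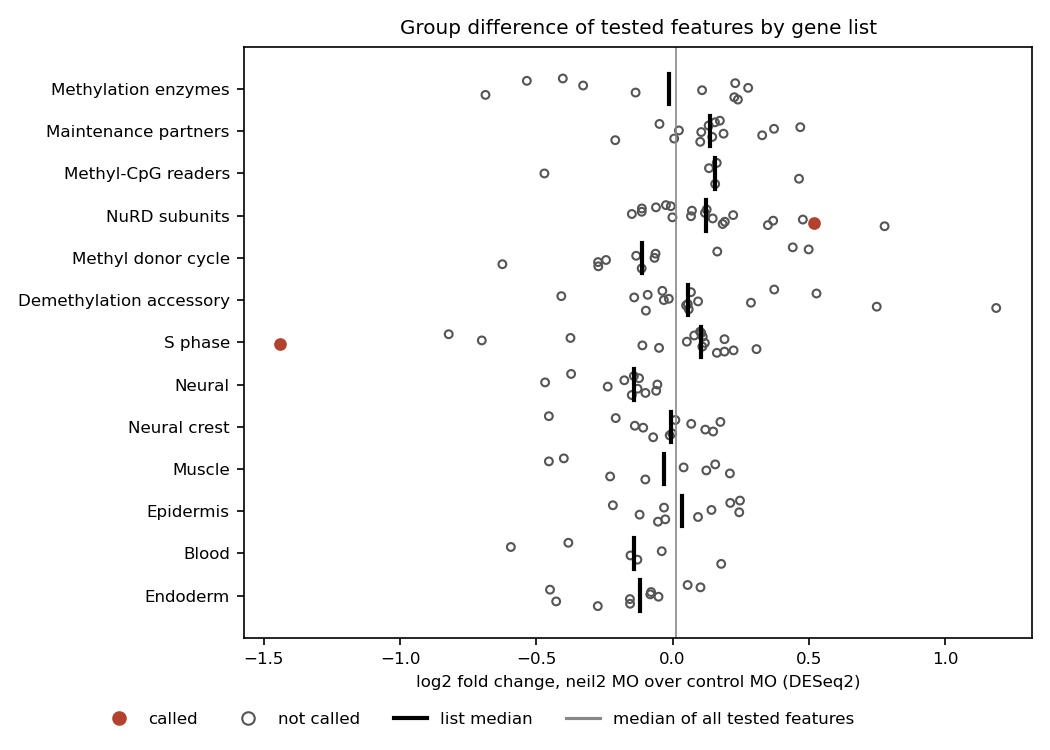
Log2 fold change of neil2 MO over control MO (DESeq2) for each tested feature of the methylation enzymes, the 5 lists of partner genes, S phase genes and 6 tissue marker lists. Filled points passed both thresholds (chd4.S and mcm4.S), black bars are list medians and the grey line is the median of all tested features (0.01).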

How the data were processed

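The deposited values were raw counts of reads per gene feature. Per the study's methods, the authors aligned single-end reads with STAR 2.5.4b to the X. laevis v9.2 assembly with JGI annotation and counted them with featureCounts 1.5.1 at default settings, so multi-mapping reads and reads over several genes were left out, and strand was not used. RefSeq v10.1 gene tables served for names only, and no sequence or coordinate is given.

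Groups and replicate numbers came from the titles. Under R 4.3.3, the Wald test of DESeq2 1.42.0 with unshrunken fold changes and independent filtering was fitted on all features and libraries and p-values adjusted over the whole table. Calls needed an adjusted p-value under 0.1 together with a log2 fold change beyond 0.5 in either direction. Intervals are 95% Wald intervals. CPM are counts scaled to the total of counted reads and normalized counts are counts divided by size factors. L to S ratios were tested with limma 3.58.1 (trend, pseudocount 0.5, mean count of at least 10 in both homeologs). No pair of libraries matched within sampling noise.

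Deviations from group means correlated between equal replicate numbers with r = 0.585, 0.566 and 0.632 over 23779 features, so the replicate number was also fitted as a block. Alternatives comprised edgeR 4.0.16, the block, TMM size factors, other filters and thresholds, summed homeologs and leaving out each library. Fits without both replicate 3 libraries, other variance trends for ratios, and the block without effect size filter or with summed homeologs were added after seeing the data. Features described are all members, features of the other lists called by DESeq2 with or without the block, and neil2.L, besides those said to be chosen later. Members and lists were chosen with earlier results of these data known. The DESeq2, edgeR and limma ratio fits without the block were tested on simulated data. Fits with the block and the other alternatives were not.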

Additional observations from a re-analysis of the deposited data

How the results depend on the processing

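With 3 pools per group, the mbd2 homeologs were too near the floor to compare, and mbd4.L rested on 85 to 180 reads per library. No member was raised under any setting. Lowered members numbered 0 in the fit reported. The number became 1 with the replicate block, 2 in edgeR with the replicate block and 3 with the replicate block and no effect size filter. It was 1 with homeologs summed and the replicate block, namely mbd4, which has mbd4.L as its only feature. Lowered members stayed at 0 in every fit that left out one library. Those fits had no block, so the calls made with the block were not tested in this way.

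Over all features, 275 were raised and 262 lowered. These numbers became 71 and 70 in edgeR, 693 and 604 with the replicate block, 980 and 1255 in edgeR with the replicate block, 1060 and 818 with the replicate block and no effect size filter, and 514 and 459 with homeologs summed and the replicate block. Without both replicate 3 libraries 175 were raised. Leaving out one library gave 142 to 311 raised and 118 to 274 lowered features. Among the 5 partner lists, the 1 raised feature became 0 in edgeR, without independent filtering, at an adjusted p-value below 0.05 and with homeologs summed, with or without the replicate block. It became 4 in edgeR with the replicate block. With the replicate block and no effect size filter 5 were raised and 1 lowered. Leaving out one library gave 0 to 1. The cause was not tested.

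Signs turned for 3 members and 2 ratios, all of them uncalled. Without both replicate 3 libraries the log2 fold change was 0.033 for tdg.S, -0.0303 for tet2.L and -0.50 for mbd2.L. Leaving out one library, mbd2.L ranged from -0.24 to 0.55, the L to S ratio difference of dnmt1 from -0.0777 to 0.0998 and that of uhrf1 from -0.2078 to 0.0361. For the other 9 members the sign held under all settings run.

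Pairs with a changed L to S ratio numbered 31 and became 56 at a mean count of at least 50, 205 with the replicate block, 67 with the mean level as trend, 868 with that trend and the replicate block, and 0 without both replicate 3 libraries. Leaving out one library gave 0 to 2.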
